A study of Mus musculus with 12 samples.

Results

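Matrix metalloproteinases (MMPs) and tissue inhibitors of metalloproteinases (TIMPs) were followed in mouse embryonic fibroblasts (MEFs) through 10 genes, Mmp2, Mmp3, Mmp9, Mmp10, Mmp11, Mmp13, Mmp14, Timp1, Timp2 and Timp3. They were chosen by gene symbol, which was matched to the Ensembl gene identifiers of the count files, and 10 of 10 were found among 37991 genes. RNA-seq was performed on primary FVB MEFs from embryos of day 13.5 at passage 3, grown with fetal bovine serum at low oxygen, that were wild type or homozygous for the E2f1 3KR allele (3KR). This allele replaces the 3 lysines at which E2F1 is acetylated with arginine and was made in the germ line with a zinc finger nuclease. The cells were untreated or exposed for 3 h to 250 ng/ml neocarzinostatin (NCS), a radiomimetic drug that breaks DNA, which gave 4 groups of 3 samples and 12 samples in all. The study describes the replicates behind its graphs as independent experiments, and the labels do not say whether they came from separate embryos or cultures. Unless they came from separate embryos, the p-values measure only the spread between these samples, which may then be technical or between cultures of the same cells.

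MMPs are zinc-dependent endopeptidases that are made as inactive proenzymes and cleave collagens, proteoglycans and other proteins outside the cell. TIMPs bind the active site of MMPs and block it, and TIMP2 also takes part, together with the membrane-bound MMP14, in the activation of pro-MMP2 at the cell surface. Fibroblasts are a main source of both in connective tissue, where they remodel the matrix during development and wound repair. Many secreted MMP genes lie together in a cluster and are known targets of AP-1, a dimer of Fos and Jun proteins that growth factors, cytokines and stress induce.

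The 10 genes lie at 8 places in the genome, given here in GRCm38 coordinates from GENCODE release M21. The submitters' processing notes name mm9, and the count files hold gene identifiers with no coordinates. Mmp13 (chr9:7272514-7283331, plus strand), Mmp3 (chr9:7445822-7455975, plus strand) and Mmp10 (chr9:7502352-7510240, plus strand) belong to a cluster of 10 MMP genes that spans 427 kb. The others are Mmp2 (chr8:92827291-92853420, plus strand), Mmp9 (chr2:164940780-164955850, plus strand), Mmp11 (chr10:75923222-75936496, minus strand), Mmp14 (chr14:54431612-54445364, plus strand), Timp1 (chrX:20870166-20874735, plus strand), Timp2 (chr11:118301069-118355740, minus strand) and Timp3 (chr10:86300372-86349506, plus strand). All 10 are annotated as protein-coding.

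RefSeq promoter sequences (GRCm38.p6) were found for 8 of the 10 genes, and those of Mmp2 and Mmp9 were not available and not searched. The 250 bases before the start annotated in RefSeq were searched for the AP-1 element TGACTCA on both strands, which 4.46% of 32851 promoters of this length hold. RefSeq starts can differ from the GENCODE positions above. The windows of Mmp11 (chr10:75932503-75932752) and Timp2 lie inside the GENCODE gene, and that of Timp3 reaches into it. The element was found in 3 of the 8 promoters, those of the chromosome 9 genes Mmp3, Mmp10 and Mmp13. These promoters are shown 5′ to 3′ on the plus strand, because these 3 genes of the cluster share the element. All 3 were called higher in 3KR MEFs after NCS, as were 22.9% of all tested genes, and Mmp10 was not called without treatment. Mmp11 and Mmp14, whose windows hold no AP-1 match, were also called higher after NCS, as was Mmp9, which was not searched. Timp1, Timp2 and Timp3, also without a match, were called lower. A link between the element and these differences was not tested. The capitals mark the AP-1 match, and the windows are chr9:7445572-7445821 for Mmp3, chr9:7502092-7502341 for Mmp10 and chr9:7272264-7272513 for Mmp13.
Mmp3: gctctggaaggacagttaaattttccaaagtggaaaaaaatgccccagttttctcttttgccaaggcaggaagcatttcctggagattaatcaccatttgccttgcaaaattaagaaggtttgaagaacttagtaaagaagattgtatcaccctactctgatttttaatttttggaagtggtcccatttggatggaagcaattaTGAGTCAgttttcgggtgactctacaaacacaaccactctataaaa
Mmp10: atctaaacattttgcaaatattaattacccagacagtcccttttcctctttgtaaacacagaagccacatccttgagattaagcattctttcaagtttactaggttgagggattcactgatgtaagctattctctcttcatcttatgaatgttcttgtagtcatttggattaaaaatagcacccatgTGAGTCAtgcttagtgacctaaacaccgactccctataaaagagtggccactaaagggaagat
Mmp13: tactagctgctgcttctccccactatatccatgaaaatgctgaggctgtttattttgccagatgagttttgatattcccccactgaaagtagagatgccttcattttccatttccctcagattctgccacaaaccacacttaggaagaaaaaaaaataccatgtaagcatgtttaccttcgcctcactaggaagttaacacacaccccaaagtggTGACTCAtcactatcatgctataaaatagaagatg
The element lay 46 to 40 bases before the start in Mmp3, 63 to 57 bases before it in Mmp10 and 35 to 29 bases before it in Mmp13. In each of these promoters the AP-1 match was followed by TATAAA, the core of the TATA box. TATAAA lay 7 to 2 bases before the annotated start in Mmp3, 29 to 24 in Mmp10 and 16 to 11 in Mmp13. It was searched on the gene strand, is held by 7.59% of all promoters and was not found in the other 5 windows. The ETS-family element PEA3, searched as AGGAAG on both strands, is held by 29.5% of all promoters and was found in those of Mmp3, Mmp13, Mmp14, Timp1 and Timp3, with 2 matches each in Mmp13 and Timp1. The matches do not overlap each other, and a match describes the sequence without showing that a factor binds it.

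**Figure D1:**
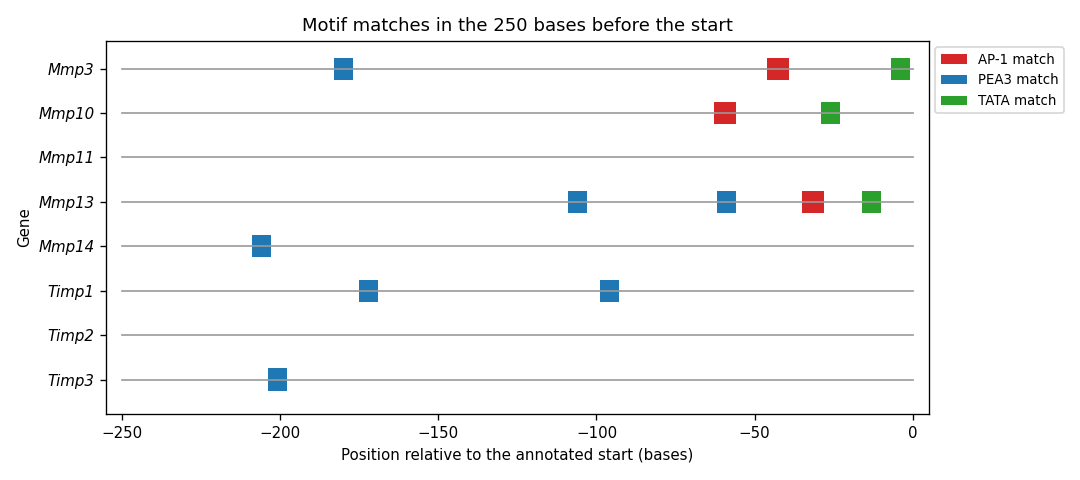
Matches to the AP-1, PEA3 and TATA elements in the 250 bases before the annotated start of 8 genes, with the position in bases from the start on the horizontal axis and a line for each gene. AP-1 and TATA matches are seen in Mmp3, Mmp10 and Mmp13, and the windows of Mmp11 and Timp2 hold no match.

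Counted reads per sample ranged from 33203757 to 45279321, and all 10 genes were among the 15327 that passed the filter on low counts. E2f1 had 1145.5 ± 133.1 normalized counts in untreated wild-type MEFs and 1121.2 ± 9.31 in untreated 3KR MEFs (SD, n = 3), and since the allele changes codons its mRNA level does not check the genotype. NCS raised the p53 targets Cdkn1a and Mdm2 in both genotypes, with log2 changes of 1.18 and 0.84 in wild-type and 1.34 and 0.96 in 3KR MEFs. Xist ranged from 32.27 to 62.53 normalized counts in wild-type MEFs and from 30590.1 to 35634.9 in 3KR MEFs, whereas the Y-linked gene Ddx3y ranged from 5370.3 to 5822.2 and from 7.001 to 16.2. All wild-type samples were thus male and all 3KR samples female by these genes, so sex and genotype cannot be told apart in any comparison below, and Timp1 is itself X-linked. If the samples of a genotype came from the same embryo or litter, that could not be told apart from genotype either. Wild-type replicate 3 stood apart from the other 2 replicates in both treatments, with a root mean square log2 difference of 0.125 to 0.152 from them, against 0.0801 to 0.0882 for all other pairs of replicates. Leaving it out of both treatments changed none of the calls between genotypes, and its effect on the responses to NCS is given with them.

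In untreated cells, 3KR MEFs had higher mRNA levels than wild-type MEFs for 5 MMP genes, lower levels of Mmp2 and lower levels of all 3 TIMP genes. The 5 higher genes were Mmp9, Mmp3, Mmp13, Mmp11 and Mmp14, and Mmp10 did not pass the test. Of all tested genes, 22.1% were called higher and 23.6% lower in this comparison (edgeR quasi-likelihood test, false discovery rate, FDR, of 0.05), against 5 and 4 of the 10 members. The normalized counts of the groups did not overlap for 9 of the 10 members, and for 53.5% of all tested genes. After NCS, 6 members were called higher, Mmp10 among them, and 4 lower, where 22.9% and 23.6% of all genes were called, and 10 of 10 did not overlap, against 54.3% of all genes. The median log2 difference between genotypes was 0.83 over the 7 MMP genes and -0.42 over the 3 TIMP genes without treatment, and 0.97 and -0.48 after NCS, whereas the median over all tested genes was 0.00 in both. In RNA from whole cultures, fewer cells of a type and less RNA per cell cannot be told apart.

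**Figure D2:**
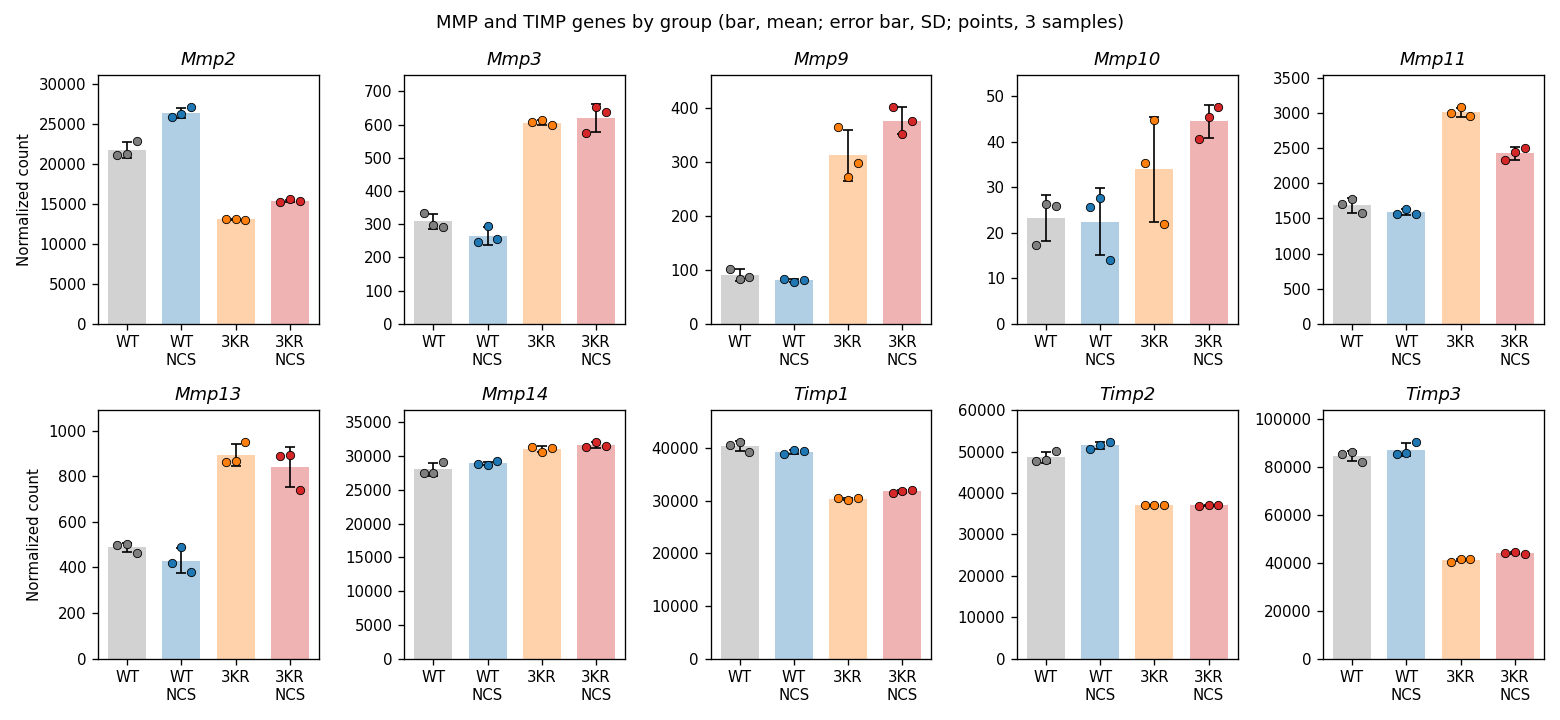
Normalized counts (vertical axes, starting at 0 and scaled for each gene) of the 10 genes in wild-type (WT) and 3KR MEFs, untreated or after NCS, with bars for the mean, error bars for the SD and points for the 3 samples of each group. Mmp2, Timp1, Timp2 and Timp3 are lower and Mmp3, Mmp9, Mmp11 and Mmp13 are higher in every 3KR sample than in every wild-type sample, and the Mmp10 samples of the untreated groups overlap.

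The 2 gelatinases, which cleave denatured collagens and type IV collagen, differed in opposite directions. Mmp2 had 21095.1, 21222.0 and 22846.1 normalized counts in untreated wild-type MEFs and 13030.2, 13109.1 and 12970.5 in untreated 3KR MEFs. Every 3KR sample was below every wild-type sample, and the log2 difference was -0.74 ± 0.03 (SE, edgeR FDR 1.61e-15). After NCS Mmp2 had 25858.6, 26146.4 and 27040.4 normalized counts in wild-type MEFs and 15189.0, 15521.3 and 15269.8 in 3KR MEFs. The groups were again apart, with a log2 difference of -0.78 ± 0.03 (SE, edgeR FDR 7.26e-16).

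Mmp9, the other gelatinase, showed the largest difference between genotypes of the 10 genes. It had 101.9, 82.17 and 85.9 normalized counts in untreated wild-type MEFs and 364.8, 272.5 and 298.2 in untreated 3KR MEFs. The lowest 3KR sample was above the highest wild-type sample, and the level was 3.43-fold higher (log2 difference 1.78 ± 0.12, SE, edgeR FDR 2.24e-11). After NCS it had 83.03, 77.44 and 80.6 normalized counts in wild-type MEFs and 401.0, 351.2 and 375.3 in 3KR MEFs, a 4.68-fold difference (log2 difference 2.23 ± 0.12, SE, edgeR FDR 5.09e-13). The Mmp9 mRNA level was low in both genotypes, at 0.6676 reads scaled by exon length and library size (RPKM) in untreated wild-type and 2.304 RPKM in untreated 3KR MEFs. Per length, Mmp9 was 0.3957% ± 0.056 of Mmp2 in untreated wild-type MEFs and 2.28% ± 0.354 in untreated 3KR MEFs (SD, n = 3), and after NCS it was 0.2907% ± 0.0133 and 2.337% ± 0.175.

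The stromelysins Mmp3 and Mmp10, which cleave proteoglycans and activate other pro-MMPs, and the collagenase Mmp13, which cuts fibrillar collagens, are the members of the chromosome 9 cluster whose promoters are shown above. Mmp3 had 333.0, 298.3 and 292.9 normalized counts in untreated wild-type MEFs and 606.7, 612.6 and 599.2 in untreated 3KR MEFs. It was 1.95-fold higher in 3KR MEFs with no overlap (log2 difference 0.97 ± 0.08, SE, edgeR FDR 3.52e-10). After NCS Mmp3 had 245.0, 294.1 and 254.7 normalized counts in wild-type and 573.2, 652.2 and 637.9 in 3KR MEFs, a 2.34-fold difference (log2 difference 1.23 ± 0.08, SE, edgeR FDR 9.79e-12). Both treatments thus showed higher Mmp3 in every 3KR sample.

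Mmp13 had 498.7, 502.2 and 463.6 normalized counts in untreated wild-type MEFs and 865.7, 867.4 and 951.1 in untreated 3KR MEFs. It was 1.83-fold higher in 3KR MEFs with no overlap (log2 difference 0.87 ± 0.08, SE, edgeR FDR 4.92e-09). After NCS it had 418.2, 488.6 and 380.1 normalized counts in wild-type and 891.2, 894.9 and 739.2 in 3KR MEFs. The lowest 3KR sample after NCS remained above the highest wild-type sample, and the difference was 1.96-fold (log2 difference 0.97 ± 0.08, SE, edgeR FDR 1.49e-09).

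Mmp10 was the least abundant member, with 14 to 46 reads per sample. It had 17.4, 26.38 and 25.87 normalized counts in untreated wild-type MEFs and 35.27, 44.72 and 21.82 in untreated 3KR MEFs. These groups overlapped, and a log2 difference of 0.54 ± 0.31 did not pass the test (SE, edgeR FDR 0.158), although without untreated 3KR replicate 3 it was 0.79 (edgeR FDR 0.046). After NCS Mmp10 had 25.63, 27.66 and 13.93 normalized counts in wild-type and 40.51, 45.5 and 47.56 in 3KR MEFs, with no overlap and a log2 difference of 0.98 ± 0.30 (SE, edgeR FDR 0.00977). That call was lost without wild-type NCS replicate 3, the lowest sample (log2 difference 0.74, edgeR FDR 0.0563).

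The other genes of the cluster gave few or no reads. Mmp12, macrophage elastase, had 38 to 77 reads per sample and log2 differences between genotypes of 0.41 without treatment and 0.53 after NCS, neither of which passed the test (edgeR FDR 0.141 and 0.0516). Mmp1a, Mmp1b, Mmp8 and Mmp27 had 0 to 9 reads and were not tested, and Mmp7 and Mmp20 had 0 reads in all 12 samples, where 3 reads would be 0.0663 to 0.0904 CPM, counts scaled by library size.

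Mmp11, the stromelysin-related enzyme that is activated inside the cell by furin, had 1702.5, 1779.4 and 1577.2 normalized counts in untreated wild-type MEFs and 2996.0, 3084.6 and 2964.2 in untreated 3KR MEFs. It was 1.78-fold higher in 3KR MEFs with no overlap (log2 difference 0.83 ± 0.04, SE, edgeR FDR 1.48e-13). After NCS Mmp11 had 1560.1, 1635.5 and 1563.3 normalized counts in wild-type and 2330.2, 2453.7 and 2505.2 in 3KR MEFs, again with no overlap (log2 difference 0.61 ± 0.05, SE, edgeR FDR 7.3e-11). The exons of Mmp11 overlap those of Chchd10 on the other strand, and the sources used here do not say whether counting used strand. Chchd10, which encodes a mitochondrial protein, had 118 to 336 reads per sample and was also higher in 3KR MEFs, with log2 differences of 0.94 and 0.83, and its part in the Mmp11 difference was not tested.

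Mmp14, the membrane-type MMP that activates pro-MMP2, differed least. It had 27538.8, 27476.4 and 29085.7 normalized counts in untreated wild-type MEFs and 31345.0, 30550.9 and 31246.6 in untreated 3KR MEFs. The groups did not overlap, and Mmp14 was 1.1-fold higher in 3KR MEFs (log2 difference 0.14 ± 0.03, SE, edgeR FDR 0.000135). After NCS it had 28790.2, 28709.4 and 29219.6 normalized counts in wild-type and 31298.6, 32078.7 and 31422.6 in 3KR MEFs, again with no overlap (log2 difference 0.13 ± 0.03, SE, edgeR FDR 0.000398).

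The 3 inhibitors were lower in 3KR MEFs in both treatments. Timp3, the TIMP that binds to the matrix and also inhibits ADAM proteases, had 85217.0, 86110.6 and 82061.8 normalized counts in untreated wild-type MEFs and 40441.9, 41391.8 and 41502.1 in untreated 3KR MEFs. It was at 0.485 of the wild-type level with no overlap (log2 difference -1.04 ± 0.03, SE, edgeR FDR 5.07e-20). After NCS Timp3 had 85066.8, 85881.0 and 90240.0 normalized counts in wild-type and 43886.1, 44567.6 and 43674.4 in 3KR MEFs, or 0.506 of the wild-type level (log2 difference -0.98 ± 0.03, SE, edgeR FDR 1.87e-19). Timp3 overlaps Syn3 on the other strand, exons included, and Syn3 had 3 to 20 reads per sample.

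Timp1, a soluble inhibitor that also acts as a growth factor, had 40615.2, 41136.4 and 39233.2 normalized counts in untreated wild-type MEFs and 30531.7, 30062.1 and 30438.2 in untreated 3KR MEFs. It was at 0.749 of the wild-type level with no overlap (log2 difference -0.42 ± 0.02, SE, edgeR FDR 1.33e-12). After NCS it had 38919.6, 39687.9 and 39365.4 normalized counts in wild-type and 31471.8, 31892.0 and 32001.6 in 3KR MEFs, or 0.808 of the wild-type level (log2 difference -0.31 ± 0.02, SE, edgeR FDR 3.87e-10). This X-linked gene was therefore lower in the samples that expressed Xist, and sex and genotype cannot be told apart for it. Timp1 overlaps Syn1 on the other strand without shared exons, and Syn1 had 246 to 426 reads per sample.

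Timp2, the inhibitor that bridges MMP14 and pro-MMP2, had 47633.1, 47959.9 and 50102.1 normalized counts in untreated wild-type MEFs and 37184.9, 37031.1 and 37068.5 in untreated 3KR MEFs. It was at 0.761 of the wild-type level with no overlap (log2 difference -0.39 ± 0.02, SE, edgeR FDR 2.88e-12). After NCS it had 50697.3, 51520.1 and 52287.6 normalized counts in wild-type and 36813.6, 37031.5 and 37062.6 in 3KR MEFs, or 0.718 of the wild-type level (log2 difference -0.48 ± 0.02, SE, edgeR FDR 9.46e-14). Timp2 overlaps Cep295nl, a gene on the same strand with no shared exon and 28 to 72 reads per sample.

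**Figure D3:**
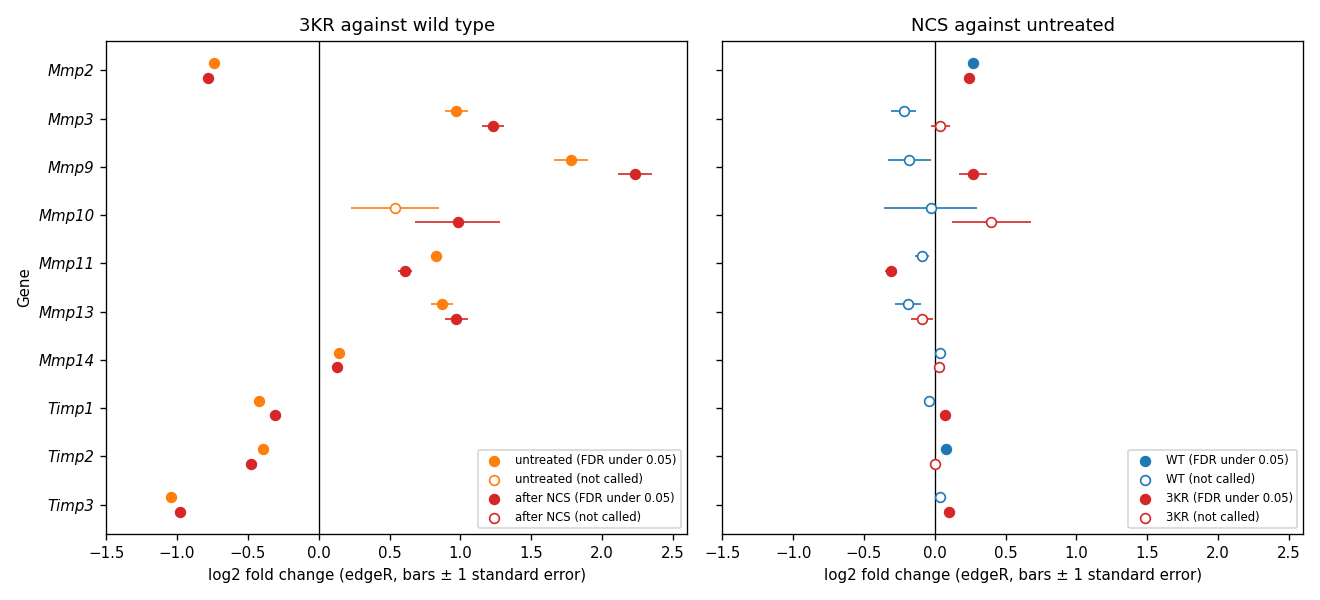
Log2 fold changes (horizontal axes) of the 10 genes for 3KR against wild type, untreated and after NCS (left), and for NCS against untreated in each genotype (right), with bars of 1 SE and filled points for an edgeR FDR under 0.05. The differences between genotypes span -1.04 to 2.23, whereas the responses to NCS span -0.31 to 0.40.

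Levels were compared between genes per length, as RPKM over the union of annotated exons. In untreated wild-type MEFs the order was Timp1 (1192.2 RPKM), Timp2 (327.2), Timp3 (272.3), Mmp2 (169.2), Mmp14 (123.5), Mmp11 (15.94), Mmp13 (4.794), Mmp3 (4.49), Mmp9 (0.6676) and Mmp10 (0.3539). Neighbours in this order did not overlap between samples, except Mmp13 and Mmp3, which overlapped in all 4 groups. In untreated 3KR MEFs Mmp14 (136.2 RPKM) stood above Timp3 (132 RPKM) and Mmp2 (101.1 RPKM), and after NCS Timp3 and Mmp14 overlapped at 141.6 and 138.8 RPKM. The order of the abundant genes rests on the length used. With the longest transcript as the length, untreated wild-type MEFs had more Timp3 (469.6) than Timp2 (343.7) and more Mmp14 (227.3) than Mmp2 (185.3), all in RPKM.

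Added up per length, the 7 MMP genes and the 3 TIMP genes gave the balance of protease and inhibitor mRNA among these members in each sample. The summed MMP level was 318.9 ± 10.6 RPKM in untreated wild-type and 286.1 ± 1.25 RPKM in untreated 3KR MEFs (SD, n = 3), and the summed TIMP level was 1791.7 ± 26.2 and 1274.4 ± 7.02 RPKM. The ratio of TIMP to MMP was 5.75, 5.8 and 5.33 in the untreated wild-type samples and 4.45, 4.45 and 4.47 in the untreated 3KR samples, with every 3KR sample lower. After NCS the ratio was 5.02, 5.05 and 4.99 in wild-type and 4.42, 4.35 and 4.44 in 3KR MEFs, and the groups were again apart. With the longest transcript as the length the ratio was 4.557 ± 0.215 and 3.333 ± 0.0115 without treatment (SD, n = 3), with no change in which genotype was lower. These sums describe mRNA and were not tested. They leave out further expressed MMP genes, such as Mmp23 (34.75 RPKM in untreated wild-type and 38.32 in untreated 3KR MEFs) and Mmp19 (10.97 and 15.09). The X-linked Timp1 was the largest part of the TIMP sum, at 1192.2 RPKM in untreated wild-type and 893.5 in untreated 3KR MEFs.

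Mmp2 and Mmp14 made up most of the summed MMP level in each group. Mmp2 gave 53.03% of it in untreated wild-type and 35.37% in untreated 3KR MEFs, while Mmp14 gave 38.7% and 47.63%. Mmp14 mRNA was thus below Mmp2 mRNA in wild-type MEFs and above it in 3KR MEFs on this scale. With the longest transcript as the length, Mmp14 was above Mmp2 in untreated wild-type MEFs too (227.3 against 185.3 RPKM). The ratio of Timp2 to Mmp2 per length was 1.937 in untreated wild-type and 2.46 in untreated 3KR MEFs, and 1.69 and 2.087 after NCS, so this pair shifted towards the inhibitor in 3KR MEFs while the summed ratio shifted away from it.

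**Figure D4:**
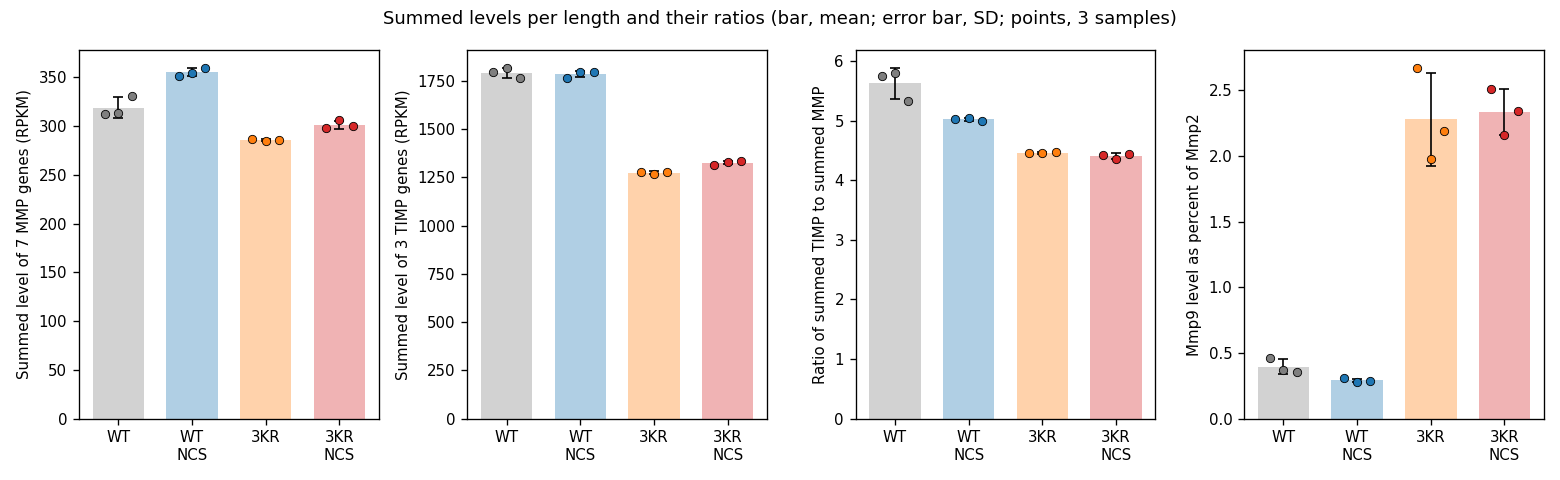
Summed level of the 7 MMP genes and of the 3 TIMP genes (RPKM), their ratio, and Mmp9 as a percent of Mmp2 per length in the 4 groups, with bars for the mean, error bars for the SD and points for the 3 samples. The ratio of TIMP to MMP is 5.33 to 5.8 in untreated wild-type and 4.45 to 4.47 in untreated 3KR MEFs.

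The response to NCS was small for these genes. In wild-type MEFs 2 of the 10 were called higher and 0 lower, at a background of 14.3% and 12.4% of all tested genes, and 4 of the 10 had an unadjusted p under 0.05 (edgeR), as did 36.9% of all genes. In 3KR MEFs 4 were called higher and 1 lower, at a background of 15.8% and 15%. Mmp2 was the member with the same call in both genotypes. From the values above, each NCS sample had more Mmp2 than each untreated sample of its genotype, with log2 changes of 0.27 ± 0.03 in wild-type (SE, edgeR FDR 3.36e-07) and 0.24 ± 0.03 in 3KR MEFs (SE, edgeR FDR 2.75e-06).

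The other call in wild-type MEFs was Timp2, which rose by 0.08 ± 0.02 on the log2 scale with no overlap (SE, edgeR FDR 0.016). It was lost without untreated replicate 1 (edgeR FDR 0.0892) or untreated replicate 2 (edgeR FDR 0.0732). Without untreated wild-type replicate 3, the replicate that stood apart, 6 members were called in place of 2, with Mmp3 (log2 change -0.26, edgeR FDR 0.0383), Mmp11 (-0.14, edgeR FDR 0.0212) and Timp1 (-0.06, edgeR FDR 0.0423) lower and Mmp14 (0.07, edgeR FDR 0.0237) higher in addition to Mmp2 and Timp2. Without wild-type NCS replicate 2, 4 members were called, among them Mmp3 (-0.31, edgeR FDR 0.0187) and Mmp13 (-0.30, edgeR FDR 0.0224). Without replicate 3 in both treatments 5 were called. The shares of all genes called with samples left out are not given here, so these counts have no background beside them. Untreated and NCS samples of wild-type MEFs with the same replicate number deviated together, and with that pairing as a block Mmp3 was also lower after NCS (log2 change -0.23, edgeR FDR 0.0461), against -0.22 ± 0.09 without it (SE, edgeR FDR 0.058). It was also lower without a block when only genes with at least 10 counts in every sample were tested (-0.24, edgeR FDR 0.0423).

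In 3KR MEFs NCS lowered Mmp11 by 0.31 ± 0.04 on the log2 scale (SE, edgeR FDR 6.08e-06), and every NCS sample lay below every untreated one. Timp3 rose by 0.10 ± 0.03 with no overlap (SE, edgeR FDR 0.0033). Timp1 rose by 0.07 ± 0.02 with no overlap (SE, edgeR FDR 0.0378), and Mmp9 by 0.27 ± 0.10 with overlapping samples (SE, edgeR FDR 0.0493). Both of these last calls were near the threshold. The call for Timp1 was lost when any 1 of the 6 samples of 3KR MEFs was left out (log2 change 0.06 to 0.08, edgeR FDR 0.0613 to 0.132), and that for Mmp9 when any but untreated replicate 1 was left out (log2 change 0.19 to 0.32, edgeR FDR 0.0506 to 0.247), so that 3 or 4 members were called in place of 5.

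The difference between genotypes in the response to NCS was called for 0 of the 10 members, at a background of 3.73% of all genes, and 5 of the 10 had an unadjusted p under 0.05 (edgeR), as did 16.3% of all genes. The closest was Mmp11, with a difference of -0.22 ± 0.06 on the log2 scale (SE, edgeR FDR 0.057). Timp1 followed with 0.11 ± 0.04 (SE, edgeR FDR 0.0901). This count depended on how samples were paired and on wild-type replicate 3. With this pairing of untreated and NCS samples as a block in both genotypes, 3 members were called, Mmp11 (-0.22, edgeR FDR 0.00493), Timp1 (0.11, edgeR FDR 0.00552) and Timp2 (-0.08, edgeR FDR 0.0248), although the same-numbered 3KR samples did not deviate together. Without wild-type replicate 3 in both treatments 4 were called, Mmp11 (-0.19, edgeR FDR 0.0151), Timp1 (0.13, edgeR FDR 1.05e-05), Timp2 (-0.10, edgeR FDR 0.00029) and Timp3 (0.11, edgeR FDR 4.81e-05). Leaving out 1 sample alone also gave calls, with Timp1 (0.13, edgeR FDR 0.00601) and Timp2 (-0.11, edgeR FDR 0.0161) without untreated wild-type replicate 3, and Mmp11 without untreated wild-type replicate 2 (-0.26, edgeR FDR 0.0297) or wild-type NCS replicate 3 (-0.23, edgeR FDR 0.0361). The shares of all genes called in these alternative fits are not given here. Whether the added calls are particular to the members was therefore not tested.

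Of 17 further MMP and TIMP genes, 8 passed the filter. Untreated, 4 were higher in 3KR MEFs (Mmp19, Mmp28, Mmp17 and Mmp23) and 2 were lower. The background was 22.1% of all tested genes higher and 23.6% lower without treatment, and 22.9% and 23.6% after NCS. The 2 lower genes were Mmp15, with a log2 difference of -1.74 ± 0.08 (SE, edgeR FDR 3.46e-15), and Mmp16, with -1.04 ± 0.06 (SE, edgeR FDR 2.46e-13). Both kept this direction after NCS, at -1.61 and -1.24. Mmp19 was higher by 0.46 ± 0.05 without treatment (SE, edgeR FDR 2.42e-08) and by 0.36 ± 0.05 after NCS (SE, edgeR FDR 1.9e-06). After NCS 2 were higher (Mmp19 and Mmp17) and 3 lower, the third being Mmp25, named here after its values were seen, which had 14.35 to 18.91 normalized counts in wild-type and 2.068 to 7.089 in 3KR MEFs. The median log2 difference of the 8 genes was 0.16 without treatment and 0.00 after NCS.

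Genes listed as activators and further inhibitors of MMPs, with those of plasminogen activation included, differed in both directions. Of the 16 tested, 5 were higher and 4 lower in untreated 3KR MEFs, and 3 and 6 after NCS, with medians of 0.04 and -0.04. Of all tested genes, 22.1% were called higher and 23.6% lower without treatment, and 22.9% and 23.6% after NCS. Pcsk6, a proprotein convertase, was higher by 1.20 ± 0.07 on the log2 scale (SE, edgeR FDR 2.94e-13) and Pcolce by 0.28 ± 0.04 (SE, edgeR FDR 1.13e-06). Serpinb2, an inhibitor of plasminogen activators, was lower by 2.49 (log2 difference -2.49 ± 0.08, SE, edgeR FDR 2.48e-17), and Plaur, the receptor of urokinase, had a log2 difference of -0.96 ± 0.04 (SE, edgeR FDR 2.99e-16). NCS raised 9 of the 16 and lowered 1 in wild-type MEFs, against 14.3% and 12.4% of all tested genes. Among the 9 were Serpine2, raised by 0.38 ± 0.03 (SE, edgeR FDR 2.2e-09), and the urokinase gene Plau, by 0.33 ± 0.04 (SE, edgeR FDR 6.84e-07). In 3KR MEFs NCS raised 5 and lowered 0, against 15.8% and 15% of all tested genes. Plaur was among the 5, raised by 0.60 ± 0.04 (SE, edgeR FDR 1.27e-11).

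Among 16 AP-1, ETS and related regulators of MMP genes, 4 were higher and 7 lower in untreated 3KR MEFs, and the median log2 difference was -0.09. The background was 22.1% of all tested genes higher and 23.6% lower. Ets2 was higher by 0.41 ± 0.03 (SE, edgeR FDR 8.13e-10) and Nfkb1 by 0.30 ± 0.04 (SE, edgeR FDR 2.78e-07), while Etv5 (-0.54 ± 0.05, SE, edgeR FDR 9.65e-10) and Egr1 (-0.38 ± 0.04, SE, edgeR FDR 2.55e-08) were lower. After NCS 6 were higher and 3 lower, with a median of 0.04, against 22.9% and 23.6% of all tested genes. NCS raised 8 of the 16 in each genotype, with Ets1 higher by 0.47 and 0.50 and Fosl2 by 0.33 and 0.42 in wild-type and 3KR MEFs. Of all tested genes, NCS raised 14.3% in wild-type and 15.8% in 3KR MEFs. Egr1, an immediate early gene, had log2 changes of -1.11 in wild-type and -0.24 in 3KR MEFs, a difference of 0.86 ± 0.06 (SE, edgeR FDR 4.38e-09), and the AP-1 subunit Fos differed in its response by 0.76 ± 0.09 (SE, edgeR FDR 1.29e-05). The chromosome 9 genes with an AP-1 match had log2 changes after NCS of -0.22, -0.03 and -0.19 (Mmp3, Mmp10 and Mmp13) in wild-type MEFs and of 0.04, 0.40 and -0.09 in 3KR MEFs, none of which had an edgeR FDR under 0.05, apart from the settings given above for Mmp3 and Mmp13 in wild-type MEFs.

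Of 9 tested cytokine signals that induce MMP genes, 5 were higher and 3 lower in untreated 3KR MEFs, with a median log2 difference of 0.10. The background was 22.1% of all tested genes higher and 23.6% lower without treatment, and 22.9% and 23.6% after NCS. Il1r1, the receptor of interleukin 1, was higher by 1.05 ± 0.03 (SE, edgeR FDR 1.99e-17) and the oncostatin M receptor Osmr by 0.35 ± 0.03 (SE, edgeR FDR 3.06e-09), and Fgf2 was lower (-0.47 ± 0.06, SE, edgeR FDR 1.23e-06). After NCS 6 were higher and 3 lower in 3KR MEFs, with a median of 0.24. NCS raised the cytokine Lif, with log2 changes of 0.83 in wild-type and 0.82 in 3KR MEFs.

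Of 25 tested ADAM and ADAMTS proteases, some of which TIMP3 inhibits, 10 were higher and 9 lower in untreated 3KR MEFs, and 7 and 10 after NCS, with medians of 0.05 and 0.00. Adam33 was higher by 1.63 ± 0.07 (SE, edgeR FDR 8.75e-16) and the procollagen peptidase Adamts2 by 1.10 ± 0.04 (SE, edgeR FDR 3.44e-17), while Adam19 (-0.95 ± 0.04, SE, edgeR FDR 7.64e-15) and Adamts14 (-0.77 ± 0.05, SE, edgeR FDR 1.27e-11) were lower. Of 17 matrix substrates, 11 were higher and 5 lower without treatment, and 10 and 5 after NCS, with medians of 0.23 and 0.12. For both lists the background was 22.1% of all tested genes higher and 23.6% lower without treatment, and 22.9% and 23.6% after NCS. Aggrecan (Acan) was higher by 2.68 ± 0.05 (SE, edgeR FDR 1.16e-22) and tenascin C (Tnc) by 0.63 ± 0.02 (SE, edgeR FDR 1.4e-17), whereas the type IV collagen gene Col4a1 (-0.91 ± 0.02, SE, edgeR FDR 1.79e-19) and the type II collagen gene Col2a1 (-1.23 ± 0.03, SE, edgeR FDR 4.07e-19) were lower.

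Marker genes of fibroblasts and of other cell types that make MMPs or TIMPs also differed between genotypes. The background for each marker list was 22.1% of all tested genes higher and 23.6% lower without treatment. After NCS it was 22.9% and 23.6%. All 10 fibroblast markers were present in every group, led by Col1a1, and 9 were higher and 1 lower in untreated 3KR MEFs, with summed levels of 1631671 to 1680675 normalized counts in wild-type and 1919168 to 1988377 in 3KR MEFs. After NCS 8 were higher and 1 lower. Macrophages make MMP9 and MMP12, and 11 of 12 macrophage markers were higher in 3KR MEFs in both treatments. Their summed level was 3936.9 to 4602.9 normalized counts in untreated wild-type and 8196.9 to 8291.7 in untreated 3KR MEFs, and 4274.9 to 4883.5 and 7476.2 to 7687.7 after NCS, with Lyz2 the most abundant and none of the 12 at or under 3 counts. The summed neutrophil markers were 19.05 to 40.36 and 23.92 to 29.1 without treatment and 23.88 to 30.75 and 22.75 to 33.42 after NCS, with Elane, Ltf, Ly6g and S100a9 at or under 3 counts in all 4 groups. Osteoblasts and hypertrophic chondrocytes make MMP13. Of 5 tested osteoblast markers 4 were higher and 1 lower in 3KR MEFs in both treatments, with Bglap and Ibsp at or under 3 counts. The summed level of the osteoblast markers was 1489.3 to 1625.9 in untreated wild-type and 2372.2 to 2427.7 in untreated 3KR MEFs. Of 7 tested chondrocyte markers 3 were higher and 1 lower without treatment, while the summed level was lower in 3KR MEFs, with untreated ranges of 42579.5 to 43977.4 and 34547.2 to 35084.2. The chondrocyte list was not chosen to mark hypertrophic cells. The part of these cell types in the Mmp9 and Mmp13 differences was not tested.

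Most Schwann cell markers and most smooth muscle and myofibroblast markers were lower in 3KR MEFs. Of 8 Schwann cell markers 5 were lower and 0 higher without treatment, and the sum was 5806.9 to 5938.4 normalized counts in untreated wild-type and 1245.9 to 1309.1 in untreated 3KR MEFs. Of 6 smooth muscle and myofibroblast markers 5 were lower and 1 higher, with a sum of 269989.0 to 281464.9 and 220841.8 to 221323.7. The part of these cells in the TIMP and Mmp2 differences was not tested. Endothelial and epithelial markers summed to 221.7 to 278.8 and 91.23 to 126 normalized counts over the 12 samples.

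The tested gene outside the 10 whose log2 CPM followed each member most closely over the 12 samples was found by Pearson correlation, as a description over samples that share genotype, sex and treatment. The highest values were for Timp3 with Tinagl1 (r = 0.998), Timp2 with Tenm3 (0.997), Mmp2 with Map4k5 (0.996) and Mmp11 with Maf (0.995). Timp1 was followed by the smooth muscle actin gene Actg2 (0.993), and Mmp9 by the X-linked gene Eif2s3x (0.993), which was higher in 3KR MEFs by 0.64 and 0.68 on the log2 scale without treatment and after NCS. Mmp3 was closest to Trim25 (0.990), Mmp13 to Uba7 (0.986), Mmp14 to the matrix cross-linking gene Loxl1 (0.979) and Mmp10 to ENSMUSG00000091213 (0.908).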

How the data were processed

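RNA-seq was performed on 12 samples of MEFs in 4 groups of 3. The authors deposited raw counts of reads per Ensembl gene for each sample, neither normalized nor filtered. The submitters' processing notes name TopHat, HTSeq, DESeq and the genome build mm9, and versions, the annotation release and the strand setting are not given in the sources used here. Of 37991 identifiers, 32919 were in GENCODE M21, from which symbols and positions were read. In R 4.3.3, filterByExpr kept 15327 genes, which were scaled by TMM and compared in edgeR 4.0.16 by its quasi-likelihood method over 4 group coefficients. The two-sided p-values were adjusted by Benjamini-Hochberg over these genes and called at 0.05. Normalized counts are counts divided by DESeq2 1.42.0 size factors, and RPKM are TMM-scaled CPM divided by exon length. The script was tested on simulated data. Counts at or under 3 were taken as the floor, for counting error only. Same-numbered untreated and NCS samples deviated together in wild-type MEFs (correlation over 9602 genes of 0.267, 0.234 and 0.468) and not in 3KR MEFs (0.00102, 0.0502 and 0.00241). The members and gene lists were chosen with earlier results of these data known. The text names the 10 members, at most 2 genes of each list with the lowest p in each direction and comparison, overlapping genes, the most similar gene for each member, and checks of treatment and sex. Further genes of the MMP family, the chromosome 9 cluster included, were named after their values were seen. Results for some genes that this rule allows are left out.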

Additional observations from a re-analysis of the deposited data

How the results depend on the processing

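The calls between genotypes held under the alternatives tried for 129 of 130 member values in each treatment, the exceptions being those given for Mmp10. These were DESeq2 size factors, the DESeq2 Wald test, no filter on low counts (24639 genes tested), at least 10 counts in every sample (13433 genes), only the groups compared, the replicate block and each sample left out. The count of members changed by NCS in wild-type MEFs went from 2 to 1 with only the groups compared, to 3 with at least 10 counts in every sample or with the replicate block (Mmp3 in addition in both), to a range of 1 to 6 with a sample left out, and to 5 without wild-type replicate 3 in both treatments, an alternative chosen after seeing the data. In 3KR MEFs it ranged from 3 to 4 with a sample left out, against 5. Members with a difference between genotypes in the response numbered 0, against 1 with the DESeq2 Wald test (Mmp11), 1 without the filter (Mmp11), 1 with at least 10 counts in every sample (Timp1), 3 with the replicate block, 0 to 2 with a sample left out and 4 without wild-type replicate 3 in both treatments. The pairing as a block changed no other call of a member than those given. The shares of all genes called under these alternatives are not given here. Mmp9 lost its NCS call in 3KR MEFs with DESeq2 size factors (FDR 0.0501) and the DESeq2 Wald test (FDR 0.0713), and Timp1 without the filter (edgeR FDR 0.101). Log2 changes that turned direction were all far from the threshold. They were Mmp10 after NCS in wild-type MEFs, at 0.07, 0.06 and 0.21 without untreated replicate 2, untreated replicate 3 and NCS replicate 3 (range with a sample left out -0.22 to 0.21) and 0.30 without replicate 3 in both treatments, Timp3 after NCS in wild-type MEFs at -0.01 without replicate 3 in both treatments, Timp2 after NCS in 3KR MEFs at 0.00 with at least 10 counts in every sample, and the difference in response of Mmp14, at 0.01 with that filter and between -0.04 and 0.00 with a sample left out. The causes were not tested. Mmp10, with 14 to 46 reads per sample, is the member whose depth limits its comparisons.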
